A study of Mus musculus with 2 samples.

Results

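The TEAD and Hippo pathway genes examined here are 10 of the 21938 protein-coding genes of GENCODE M21 on mm10: the TEAD factors *Tead1*, *Tead2*, *Tead3* and *Tead4*, the coactivators *Yap1* and *Wwtr1*, the kinases *Lats1* and *Lats2*, and the VGLL cofactors *Vgll4* and *Vgll2*. They were listed by name, not by a threshold on a measured value. The data are ATAC-seq peaks, which mark stretches of open chromatin cut by the Tn5 transposase, from E11.5 wildtype mouse hearts of the FVB strain, in 2 replicates that each pooled 2 hearts. There was 1 group with no treatment, allele or control tissue, so levels are compared between genes of the same hearts and no test between conditions was possible. An accessible promoter does not measure transcription. Whole hearts mix several cell types, and fewer open cells and less opening per cell cannot be told apart.

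TEAD proteins bind DNA but activate transcription poorly alone, and they rely on the coactivators YAP (*Yap1*) and TAZ (*Wwtr1*). In the Hippo cascade, the MST kinases (*Stk3*, *Stk4*) activate LATS kinases, which phosphorylate YAP and TAZ and keep them out of the nucleus. Vestigial-like (VGLL) proteins compete with or replace YAP and TAZ on TEAD. In the embryonic heart this pathway is known for setting cardiomyocyte proliferation, and TEAD factors are known for binding the MCAT element of cardiac muscle genes, whose core is CATTCC.

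The peak list of replicate 1 held 118027 peaks and that of replicate 2 held 114783, and 98924 regions were covered by both. Peak height is given as the fold enrichment over background in the deposited lists, with a median of 5.70 in replicate 1 and 5.03 in replicate 2, and the sequencing depth behind it is unknown. Shared regions lay at starts of all 6 cardiomyocyte, 4 endothelial, 3 epicardial and 3 red blood cell marker genes examined, and at none of the 3 liver genes, beside 67.6% of all protein-coding genes. Among genes of tissues other than heart, 1 of 3 neuronal genes (*Tubb3*, 9.78 and 10.8) and 2 of 3 skeletal muscle genes had one. The latter were *Ckm* (17.4 and 19.6), which heart muscle also uses, and *Myod1* (4.89 and 5.53). The *Tubb3* values lay within the range of *Nkx2-5* (11.95 and 9.30), the lowest of the 6 cardiomyocyte markers, so height did not set these tissues clearly apart.

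The sequences first shown are the TEAD core matches at the promoters of the pathway's own genes, because the strongest promoter region of 5 of the 10 genes held CATTCC, on either strand, within 300 bp centred on the replicate 1 summit. Across all protein-coding genes with a promoter region the share was 10.3%. This count per gene was not among the planned measures. The planned one took all 163 shared regions of the genes with 50 kb on each side. There the share was 17.2%, beside 20.5% of all shared regions, so the loci as a whole were not rich in the core. The 5 genes with a promoter match were *Tead1*, *Tead3*, *Tead4*, *Wwtr1* and *Lats2*. The sequences are given from the plus strand of GRCm38 with the core in capitals (CATTCC, or GGAATG where the match is on the minus strand). Windows that touch an annotated exon are limited to 30 bases, and the others span 100 bases. The reverse core begins with GGAA, letters that ETS factor motifs also hold, and no ETS motif was searched.

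Tead1 promoter, chr7:112679337-112679366: tcatttCATTCCtgtcctCATTCCgcacat

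Tead4 promoter, chr6:128300456-128300485: aGGAATGcacGGAATGggcgctGGAATGag

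Lats2 promoter, chr14:57746102-57746131: ctacattgttggCATTCCacgggcgtcacg

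Tead3 promoter, chr17:28350935-28351034: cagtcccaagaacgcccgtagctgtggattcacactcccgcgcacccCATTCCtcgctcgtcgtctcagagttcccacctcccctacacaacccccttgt

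Wwtr1 promoter, chr3:57575994-57576093: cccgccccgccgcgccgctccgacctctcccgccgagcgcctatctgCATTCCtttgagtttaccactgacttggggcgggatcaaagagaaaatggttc

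*Tead1* and *Tead4* carried the core more than once, which was singled out after the values were seen. The *Tead4* window held 3 copies in its 5′ UTR, with starts 9 and 12 bp apart, all in the orientation of the gene. The *Tead1* window held 2 copies in its 5′ UTR, also 12 bp apart and also in the orientation of the gene, the nearer one 2 bp from the replicate 1 summit. Windows with 2 or more copies were found at 0.762% of all genes with a promoter region, and windows with 3 or more at 0.108%. The single copies of *Tead3* and *Wwtr1* lay outside the annotated gene, 84 and 120 bp from the summit, and that of *Lats2* lay in its 5′ UTR, 39 bp from the summit. The matches depended on the letters and on the window. With the window on the replicate 2 summit *Yap1* joined the list, for 6 of 10 genes. With a window of 200 bp 3 of 10 remained (*Tead1*, *Tead3* and *Lats2*), beside 6.94% of all genes, and the longer form ACATTCC was in 0 of 10, beside 2.29% of all genes.

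RefSeq's promoter windows on GRCm38.p6 (300 bases at each start) gave a second look that uses no peak summit, although it covers partly the same bases. They matched 8 of the 10 genes, all but *Tead1* and *Tead4*, and contained CATTCC in at least 1 window of 5 of these (*Tead3*, *Yap1*, *Wwtr1*, *Lats2* and *Vgll4*), and of 16.6% of all genes in that table. *Tead2*, *Lats1* and *Vgll2* held no match in these windows. The windows of *Tead3*, *Wwtr1* and *Lats2* span the copies already shown, so for these genes the look is not independent. A gene with more windows also has more room for a match: the 8 genes had 12 windows, and all 27025 genes had 32851.

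All 10 genes had a region shared by both replicates within 1 kb of an annotated start, as did 67.6% of all protein-coding genes. Most of these 10 promoters were of middling or low height among all promoters. The 6 cardiomyocyte marker genes were lower, with medians of 15.2 and 12.3, beside 20.5 and 22.25 for the 10 genes. The fold enrichment of the strongest promoter peak was at or below the median of all promoters (24.5 in replicate 1 and 24.6 in replicate 2) for most members: 7 of 10 lay below it in both replicates and 2 of 10, *Wwtr1* and *Lats1*, above it in both. Among all genes with a promoter region 46.7% lay below the median in both and 46.3% above it in both.

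The 4 TEAD factors all lay below the median in both replicates. *Tead3* reached 22.3 in replicate 1 and 23.1 in replicate 2, and *Tead1* reached 19.0 and 24.4. *Tead1* had the widest gap of the TEAD genes, 0.36 on the log2 scale, beside an SD of 0.21 for the same difference over all promoters. *Tead4* had 19.3 and 16.8, and *Tead2*, the TEAD gene known for early embryonic expression, was lowest of all 10 genes at 12.2 and 12.3. The *Tead2* range lay below those of the other 3 TEAD genes, and *Tead3* stood above *Tead4*, whereas *Tead1* overlapped both *Tead3* and *Tead4*. Thus 4 of the 6 TEAD pairs had replicate ranges that did not overlap, whereas 91.0% of all pairs of genes with a promoter region did not, so separation of a pair was the usual outcome.

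**Figure D1:**
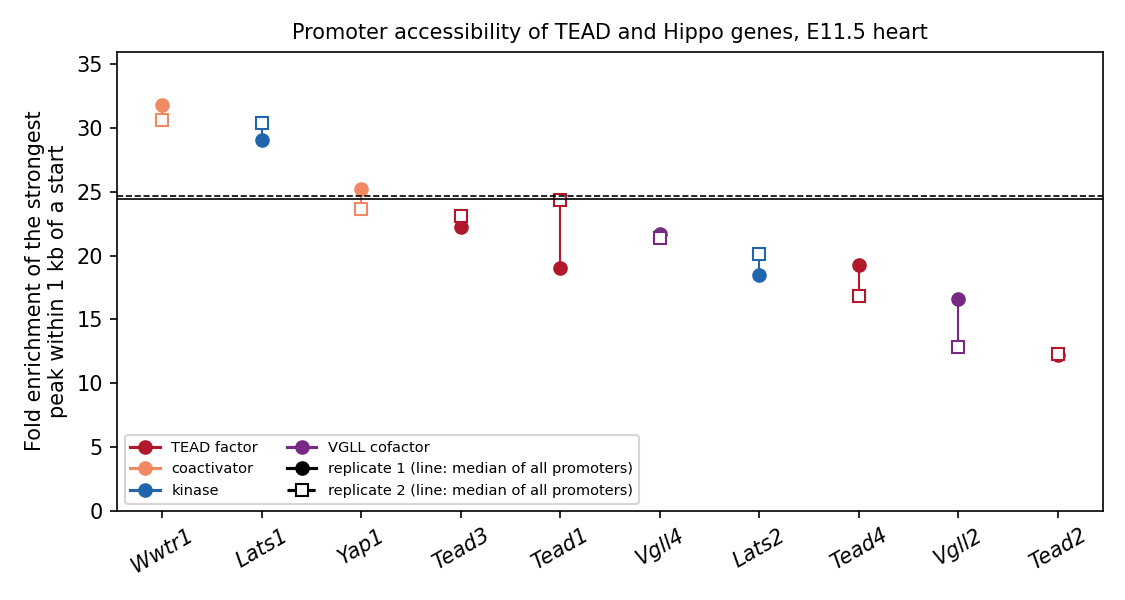
Fold enrichment of the strongest peak within 1 kb of a start (vertical axis, linear) for each of the 10 genes, ordered by their mean; filled circles are replicate 1, open squares replicate 2, and the horizontal lines are the medians over all promoters (solid, replicate 1; dashed, replicate 2). *Wwtr1* and *Lats1* lie above both lines, and all 4 TEAD genes (dark red) lie below the line of their replicate.

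The coactivators had higher values than most of the TEAD genes. *Wwtr1* had the highest promoter of the 10 genes in both replicates, 31.8 and 30.7, at percentiles 70.0 and 66.8 of all promoters. *Yap1* had 25.3 and 23.6, either side of the median, in a region that also lay within 1 kb of a start of the divergent noncoding gene *Gm45494*. Both promoter regions were also broad, 2874 bp for *Wwtr1* and 2859 bp for *Yap1*, wider than the summed promoter regions of 89.0% and 88.9% of genes. *Wwtr1* stood above every TEAD gene in both replicates, and *Yap1* above all but *Tead1*, so 7 of the 8 pairs of a TEAD gene with a coactivator did not overlap, a share near the 91.0% of all gene pairs.

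The kinases differed from each other. *Lats1* had 29.1 and 30.4, above every TEAD gene, and *Lats2* had 18.5 and 20.1, above *Tead2*, below *Tead3* and overlapping *Tead1* and *Tead4*. In all, 6 of the 8 pairs of a TEAD gene with a kinase did not overlap, no more than the 91.0% of all gene pairs. The *Lats1* region also lay within 1 kb of an annotated *Pcmt1* start and the *Lats2* region within 1 kb of a start of *Gm49361*, a gene model that overlaps it. The share of each gene in those peaks cannot be told apart.

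Of the VGLL genes, *Vgll4*, whose product competes with YAP for TEAD, had 21.7 and 21.4, and *Vgll2*, known from skeletal muscle and pharyngeal tissue, had 16.6 and 12.8. The pair of *Vgll4* values came from different starts, as described next. *Vgll2* had the largest drop from replicate 1 to replicate 2 of the 10 genes, 0.37 on the log2 scale. Over all 45 pairs of members 39, or 86.7%, had replicate ranges that did not overlap, beside 91.0% of all pairs of genes with a promoter region. In the order of the means, *Tead3* and *Tead1*, *Tead1* and *Vgll4*, and *Lats2* and *Tead4* were neighbours whose ranges overlapped, and the other 6 neighbouring pairs did not.

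The annotated starts of the 10 genes fell into 37 groups when starts under 500 bp apart were joined, and 21 of these (56.8%) had a shared region, beside 42.2% of all start groups of protein-coding genes. Starts near each other can share 1 region, and not all are starts of protein-coding transcripts. *Wwtr1* and *Vgll2* have a single group, which was open.

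The starts of *Tead1* were unevenly open. Its upstream start group (chr7:112679318-112679510, 4 transcripts) had the peak of 19.0 and 24.4 given above, in a region of 1816 bp (chr7:112678440-112680255) shared with the start of the divergent noncoding gene *2310014F06Rik*. The group with the most transcripts, 8, lay 80 kb further into the gene and had only a shared region of 120 bp with fold enrichments of 4.07 and 3.52. A single start between them had 11.4 and 9.55 (chr7:112741720-112742185), and the other 2 groups had none. The upstream start thus stood apart from the internal ones in both replicates.

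*Vgll4* had 5 shared regions at its starts, the most of the 10 genes, with a summed width of 5953 bp that exceeded 99.3% of genes. Its most upstream starts, near chr6:114969994, had 14.1 and 12.8 (chr6:114968427-114970086). A start 48 kb further into the gene had 21.7 and 20.9 (chr6:114920430-114922185), and one that gives only noncoding processed transcripts, a further 47 kb in, had 19.0 and 21.4 (chr6:114873898-114875764). Both internal regions were higher than the upstream one in both replicates, and their own ranges overlapped. The remaining 2 start regions were lesser ones beside the internal starts, chr6:114922662-114922955 at 4.89 and 6.54 and chr6:114875998-114876373, where replicate 1 had 5.70 and replicate 2 the peak of 21.4 already given. The CATTCC match of *Vgll4* lay at the upstream start.

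In *Lats2* the open region (chr14:57745357-57746838) covered starts of an internal group of 4 transcripts and lay within 1 kb of a single start beside it. The outermost start, near position 57758388, had no shared region, and neither did the starts near positions 57734300 and 57699890. In *Lats1* the upstream start was open and the second, which has 2 transcripts 10 kb downstream, was not. *Yap1* had 3 of 4 groups within 1 kb of 1 region (chr9:8002492-8005350), *Tead2* 4 of 9 within 1 kb of 1 region (chr7:45215506-45217050), *Tead3* 1 of 3 and *Tead4* 1 of 2. The strongest region was chr17:28349979-28352142 for *Tead3*, chr6:128299924-128301181 for *Tead4*, chr3:57574102-57576975 for *Wwtr1*, chr10:7680372-7682602 for *Lats1* and chr10:52021756-52023138 for *Vgll2*. In *Tead3*, *Tead4* and *Vgll2* the peak of replicate 2 ran on past a gap in replicate 1, so that a small second region (316, 244 and 339 bp) carries the replicate 2 value of the main promoter and is not a separate summit there.

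The base composition of the strongest promoter windows also differed between members. The ratio of observed to expected CpG over 300 bp at the summit had a median of 0.81 over all promoters. *Tead1* (1.19), *Yap1* (1.16) and *Lats2* (1.08) lay at or above the 94th percentile. *Tead2* (0.34) and the internal *Vgll4* promoter (0.32) lay at percentiles 8.34 and 7.81. *Tead3*, *Tead4* and *Wwtr1* had 0.78, 0.79 and 0.78, at percentiles from 44.1 to 45.9, *Lats1* had 0.75 at percentile 38.9 and *Vgll2* 0.93 at percentile 74.1.

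The gene bodies with 50 kb on each side held 163 shared regions, of which 19 lay within 1 kb of a start of the gene itself, 21 at starts of other protein-coding genes and 123 at neither, here called distal. Of the distal regions 75 lay inside the gene. Regions in a locus are assigned by position alone, and a region there may act on another gene or on none. These loci held 192 peaks of replicate 1 and 176 of replicate 2, of which 34 and 25 had no overlap in the other replicate. Peaks seen in 1 replicate were low: the highest was 6.79, in the *Wwtr1* locus.

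**Figure D2:**
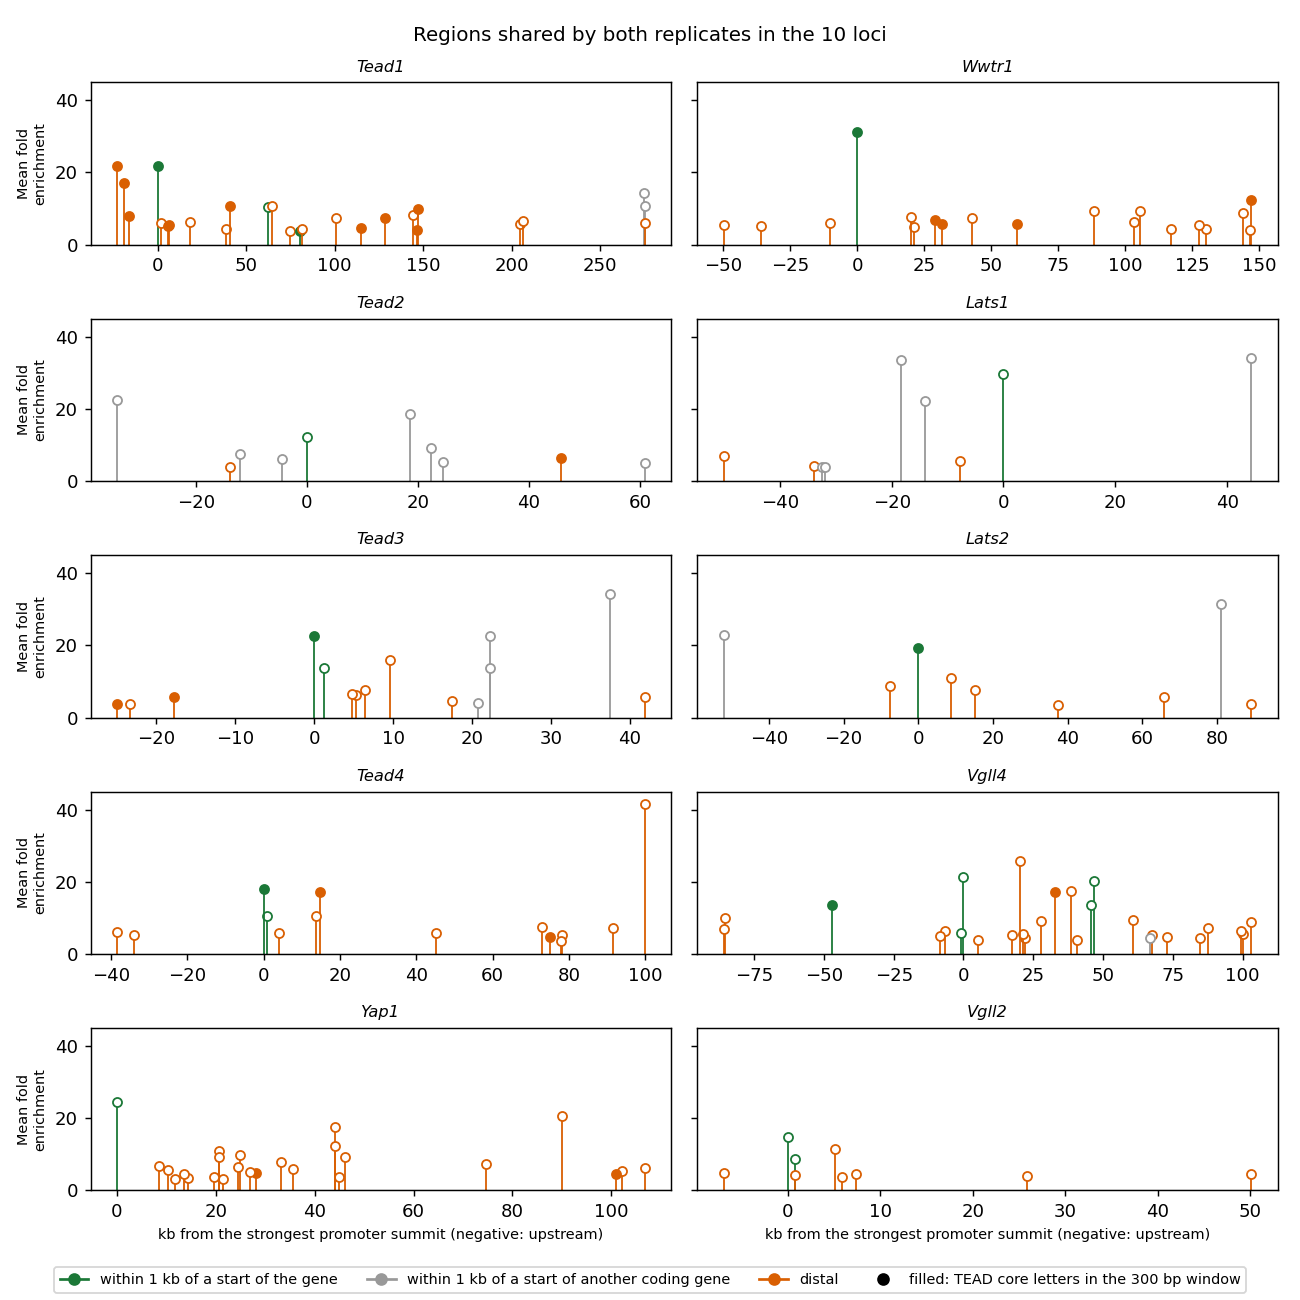
Shared regions in the 10 loci by distance from the strongest promoter summit of the gene (horizontal axis, kb in the direction of transcription; the scale differs between panels) and mean fold enrichment of both replicates (vertical axis). Green marks a start of the gene, grey a start of another protein-coding gene and orange a distal region, and filled circles mark CATTCC within 300 bp at the replicate 1 summit; the highest distal region, 100 kb from the *Tead4* promoter, is at the start of a noncoding gene.

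Densities are given per 100 kb of locus and as a percentile among all protein-coding loci, whose median was 5.41 regions per 100 kb. The median member locus stood at percentile 72.2. *Yap1* was densest, with 25 regions or 14.5 per 100 kb at percentile 93.7. *Vgll4* followed with 27 regions (12.9 per 100 kb, percentile 90.6) and *Tead3* with 15 (12.6 per 100 kb, percentile 89.7). The kinase loci were sparsest, with 9 regions each: *Lats1* at 6.65 per 100 kb and percentile 59.8, and *Lats2* at 5.33 and percentile 49.4. Replicate by replicate, *Yap1* stood at percentiles 95.4 and 95.1, *Vgll4* at 95.8 and 93.6, and *Lats2* at 56.5 and 52.4. *Vgll4* was thus the denser of the first 2 in replicate 1. *Wwtr1* moved most between replicates, from 86.3 to 69.9, and 67.9% of its replicate 1 peaks had a partner in replicate 2, the lowest share of the 10 loci.

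Counting distal regions alone changed the picture for the gene-rich loci. All protein-coding loci had a median of 2.87 distal regions per 100 kb. *Yap1* had 13.9, at percentile 98.6, with 24 distal regions and none at the start of another gene. *Tead2* had 2 distal regions, 1.70 per 100 kb at percentile 33.4, and 7 more regions lay at starts of neighbouring genes. *Lats1* had 3 distal regions, at percentile 41.9, and *Lats2* 6, at percentile 57.1. *Tead1* (21 distal regions, percentile 81.3), *Tead4* (12, percentile 83.6), *Tead3* (9, percentile 87.1), *Wwtr1* (18, percentile 89.6), *Vgll2* (7, percentile 82.5) and *Vgll4* (21, percentile 94.5) were all above percentile 50.

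**Figure D3:**
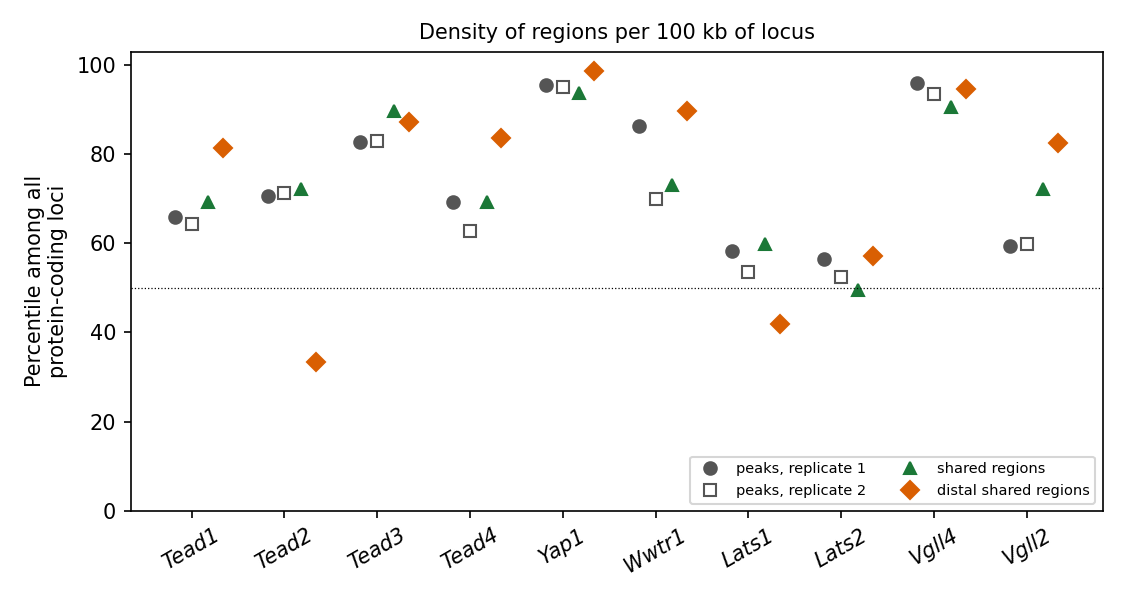
Percentile of each locus (gene body with 50 kb on each side) among all protein-coding loci for the number of peaks per 100 kb in replicate 1 (circles) and replicate 2 (squares), of shared regions (triangles) and of distal shared regions (diamonds). *Yap1* is just under *Vgll4* for the peaks of replicate 1 and highest on the other measures, and *Tead2* falls from percentile 72.1 for all shared regions to 33.4 for the distal ones.

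The distal regions of the 10 loci were about as high as distal regions elsewhere, with medians of 5.98 and 5.53 beside 5.98 and 5.28 over all 78093. At or above the 90th percentile in both replicates stood 10 of 123, beside 6.99% of all distal regions. These 10 were in 5 loci: 3 in *Vgll4*, 2 each in *Tead1*, *Tead4* and *Yap1*, and 1 in *Tead3*.

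The highest was 24 kb past the 3′ end of *Tead4* (chr6:128200123-128201678), at 41.3 and 42.0, more than the promoter of any of the 10 genes. It lay at the annotated start of *Gm10010*, a long noncoding RNA gene, and its window had 69.7% GC and a CpG ratio of 0.72, close to promoters. A second *Tead4* region lay in an intron 15 kb downstream of the promoter (chr6:128285674-128286385) with 18.2 and 16.3, about the height of the *Tead4* promoter. Another, small region beside it (chr6:128286598-128286751, 154 bp) has 4.89 in replicate 1, and its 16.3 in replicate 2 belongs to the same peak as the second.

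*Tead1* had its highest distal regions upstream, in an intron of the noncoding *2310014F06Rik*. One lay 23 kb upstream of the promoter (chr7:112656059-112656801) with 25.3 and 18.4, and the next 19 kb upstream (chr7:112659994-112660767) with 19.8 and 14.1. The first overlapped the range of the *Tead1* promoter itself. The highest inside the gene was in an intron (chr7:112743557-112744101), with 12.5 and 9.05. In all of these replicate 1 was higher, as it was for the median peak.

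*Tead3* had 1 high intronic region, 10 kb downstream of its promoter (chr17:28340636-28341601), with 16.3 and 15.8, followed by intronic regions at 7.33 and 8.05 (chr17:28343982-28344642) and at 5.98 and 7.29 (chr17:28345934-28346211). The replicate 2 summit behind that 7.29 lies in the neighbouring region chr17:28345162-28345797. The region at 16.3 and 15.8 was the only *Tead3* distal region at or above the 90th percentile in both replicates. The 2 distal regions of the *Tead2* locus lay in introns of neighbours, *Slc6a16* (7.06 and 5.78, chr7:45262324-45262810) and *Ccdc155* (4.35 and 3.52, chr7:45202565-45202802).

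*Yap1* had an intergenic region 17 kb past its 3′ end (chr9:7914015-7914960) with 19.3 and 22.1, and an intronic one 44 kb downstream of the promoter (chr9:7960176-7960987) with 20.1 and 15.3. Beside the latter, chr9:7961334-7961914 carries the same replicate 1 peak and has 4.78 in replicate 2. *Yap1* thus combined the locus densest in shared regions with 2 distal regions at or above the 90th percentile in both replicates. *Wwtr1* had 18 distal regions of which none was that high: the highest, 147 kb downstream of the promoter in an intron of *Tm4sf4* (chr3:57428586-57429278), had 14.7 and 10.3. The next were intronic in *Wwtr1*, with 10.6 and 8.05 (chr3:57487338-57487849) and 9.51 and 9.05 (chr3:57470329-57471475).

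*Vgll4* held its highest distal regions in introns, between its internal promoters. The highest (chr6:114901091-114902528, 1438 bp) had 25.0 and 26.7, above each of the *Vgll4* promoter regions in both replicates. The others had 17.9 and 16.6 (chr6:114888852-114889421) and 16.8 and 18.1 (chr6:114882366-114883814). *Vgll2* had its highest distal region over a coding exon near the end of its short gene (chr10:52027105-52028164), with 11.7 and 11.1, 72.0% GC and a CpG ratio of 0.91. Its next ones were at 5.98 and 3.77 (chr10:52015410-52015671) and 4.62 and 4.78 (chr10:52072520-52072875, in an intron of *Ros1*).

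The kinase loci had no distal region that high. In *Lats2* the highest were intronic, with 11.7 and 10.3 (chr14:57737086-57737658), 10.1 and 7.54 (chr14:57753329-57753977) and 8.96 and 6.03 (chr14:57730540-57730953). The 3 distal regions of the *Lats1* locus lay upstream in introns of *Pcmt1*, with 8.15 and 5.53 (chr10:7631347-7631797), 7.33 and 3.77 (chr10:7673707-7674045) and 5.16 and 3.27 (chr10:7647552-7647795). No distal region of that locus lay inside *Lats1*.

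CATTCC occurred in 21 of the 123 distal regions (17.1%), beside 22.5% of all distal regions. The loci differed. The TEAD loci had it in 14 of 44 (31.8%). Of these 9 were among the 21 distal regions of *Tead1* (42.9%), and without *Tead1* the other TEAD loci had it in 5 of 23 (21.7%), near the share of all distal regions. For the rest, the coactivator loci had it in 6 of 42 (14.3%), the VGLL loci in 1 of 28 and the kinase loci in 0 of 9. At the members' own starts it occurred in 7 of 19 regions (36.8%), beside 12.8% of all promoter regions, and at the starts of other genes in these loci in 0 of 21. The own-start matches were in *Tead1* (2 regions), *Tead3*, *Tead4*, *Wwtr1*, *Lats2* and *Vgll4*. Regions of 1 locus are not independent of each other, and no test was made.

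The GATA core AGATAA and the T-box core AGGTGT were searched in the same windows on both strands, because GATA4 and TBX5 are cardiac factors that bind such sites. AGATAA was in 25 of the 123 distal regions (20.3%), beside 26.0% of all, and AGGTGT in 22 of 123 (17.9%), beside 13.2% of all. In the TEAD loci each was in 12 of 44 (27.3%), close to the share over all distal regions for AGATAA and above it for AGGTGT. At the members' own starts AGATAA was in 0 of 19 regions and AGGTGT in 1 of 19, beside 8.78% and 10.4% of all promoter regions.

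**Figure D4:**
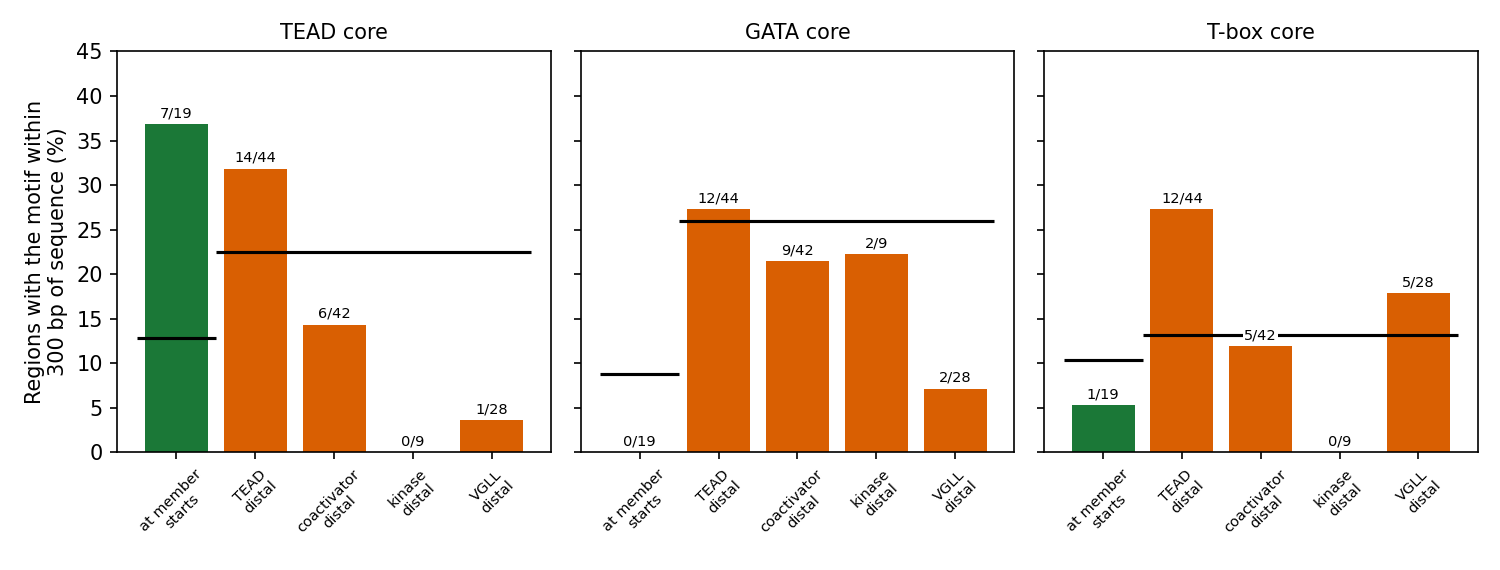
Share of shared regions with the TEAD core (left), the GATA core (middle) and the T-box core (right) within 300 bp at the replicate 1 summit, for regions at the members' own starts (green) and distal regions of the loci by role of the gene (orange), with counts above the bars. Black lines give the share over all promoter regions (over the green bar) and all distal regions (over the orange bars); the TEAD core exceeds the line at own starts (7 of 19) and in TEAD loci (14 of 44, or 5 of 23 and below the line without *Tead1*), and the T-box core exceeds it in TEAD loci (12 of 44) and VGLL loci (5 of 28).

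The 5 highest distal regions with CATTCC are shown because they are the candidate TEAD matches with the most open chromatin in these loci. All are from the plus strand of GRCm38, 100 bases, with the core in capitals.

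Tead1 upstream region at 23 kb, chr7:112656217-112656316: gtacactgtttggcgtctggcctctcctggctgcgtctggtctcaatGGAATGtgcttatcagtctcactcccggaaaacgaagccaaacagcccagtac

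Tead1 upstream region at 19 kb, chr7:112660409-112660508: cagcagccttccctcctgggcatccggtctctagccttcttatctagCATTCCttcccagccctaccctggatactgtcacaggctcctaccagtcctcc

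Tead4 intron, chr6:128285888-128285987: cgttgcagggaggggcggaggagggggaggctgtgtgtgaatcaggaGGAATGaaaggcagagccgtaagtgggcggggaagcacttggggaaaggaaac

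Vgll4 intron, chr6:114889126-114889225: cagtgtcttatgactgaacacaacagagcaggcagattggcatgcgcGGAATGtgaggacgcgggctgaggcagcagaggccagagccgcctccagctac

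Wwtr1 downstream region, chr3:57428872-57428971: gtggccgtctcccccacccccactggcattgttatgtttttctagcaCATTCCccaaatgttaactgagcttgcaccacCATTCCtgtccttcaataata

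Close to the summits, the *Tead4* match lay 13 bp and the *Vgll4* match 25 bp from the replicate 1 summit, the *Wwtr1* region held 2 copies, and the *Tead1* matches lay 75 and 78 bp from theirs. Of these 5 regions 4, all but the *Vgll4* one, also held AGATAA within the same 300 bp, which was noticed after the values were seen. Over all member distal regions with CATTCC the share was 6 of 21, beside 25.9% of all distal regions with CATTCC.

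Upstream of LATS and downstream of TEAD, the promoters of the wider pathway were open too. All 20 upstream regulators, both other VGLL genes and all 21 target genes examined had a shared region at a start, beside the 67.6% of all genes given above. The upstream regulators had median fold enrichments of 32.6 and 32.1, and 13 of 20 lay above the median of all promoters in both replicates and 4 below it, beside 46.3% and 46.7% of all genes with a promoter region. The highest were *Frmd6* (42.4 and 42.7), *Stk3* (43.5 and 39.7), which encodes an MST kinase, and *Nf2* (41.8 and 41.0), which encodes the scaffold Merlin. The lowest were *Amotl1* (17.7 and 13.8), *Wwc1* (17.9 and 14.1) and *Dchs1* (16.0 and 16.8), a protocadherin. The groups also differed in CpG content, taken over 1 kb at the start group with the most transcripts. The median ratio of observed to expected CpG was 0.79 for the upstream regulators, 0.63 for the TEAD factors and 0.69 for the targets. Over all genes it was 0.56, and a link to promoter height was not tested.

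The target genes, chosen as known YAP and TEAD targets, had medians of 20.9 and 18.6, and 16 of 21 lay below the median of all promoters in both replicates and 3 above it, beside the same 46.7% and 46.3%. Those 3 were *Gadd45a* (59.2 and 54.1), a stress-response gene, *Asap1* (42.4 and 40.5) and *Crim1* (33.95 and 38.5). The lowest were *Foxf2* (8.69 and 7.29), *Myof* (8.42 and 7.79) and *Ccdc80* (10.6 and 9.30). *Ccn1* (20.9 and 18.1), *Ccn2* (21.2 and 21.4) and *Ankrd1* (29.6 and 22.1), named here as the most used readouts of YAP activity after their values were seen, were not alike: *Ccn1* and *Ccn2* lay within the range of the 4 TEAD genes in both replicates, and *Ankrd1* lay above it in replicate 1 and within it in replicate 2. Of the other VGLL genes, *Vgll3* (29.3 and 29.7) was above both member VGLL genes and *Vgll1* (8.15 and 7.54) below both.

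**Figure D5:**
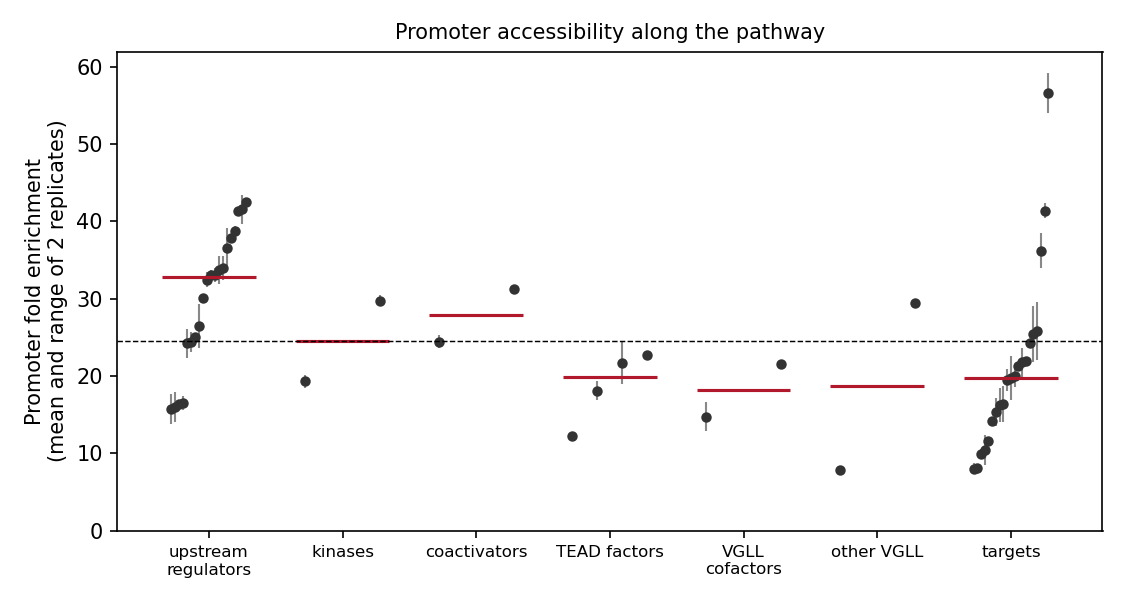
Promoter fold enrichment (vertical axis; points are means of 2 replicates and bars the range between them) for the upstream regulators, the 10 member genes by role, the other VGLL genes and the targets; red lines are group medians and the dashed line is the median over all promoters. The upstream regulators lie mostly above the dashed line, the 4 TEAD factors all below it and the targets mostly below it, with *Gadd45a* highest.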

How the data were processed

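Peaks of ATAC-seq on E11.5 wildtype hearts (2 replicates) were analysed. Per the labels the authors trimmed reads with Trim Galore 0.6.6 and cutadapt, aligned them to mm10 (GRCm38) with Bowtie2 2.4.2 and used SAMtools 1.12; the methods name MACS2 for peak calling in each replicate. The deposited lists give per peak a fold enrichment (ratio over background), a −log10 p-value, a −log10 q-value and a score, as the authors' peak caller wrote them. No read counts were used, so no depth, interval or count test is given. 

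Here, bedtools 2.31.1 and Python 3.11.15 intersected the lists (at least 1 bp), trimmed replicate 1 peaks to replicate 2 and merged touching pieces. Each region carries the highest fold enrichment of its overlapping peaks, whose summit can lie outside it: of 163 member regions 131 held both summits. Genes are GENCODE M21. A gene's promoter value is the highest per replicate within 1 kb of any start. With 2 replicates, genes were called different only where both values of one exceeded both of the other; no p-value was computed. The code was tested on simulated data. Members were listed by name and gene lists from known biology, with earlier results of these data known. Named regions were each gene's own promoter regions, the 3 highest distal regions per locus and the 5 highest distal regions with CATTCC; from the lists, the 3 highest and 3 lowest genes.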

Additional observations from a re-analysis of the deposited data

How the results depend on the processing

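The count of members with a promoter region (10) and that of pathway and target genes (43) did not change under any alternative run. Open start groups ranged from 18 to 23. The run limited to protein-coding transcripts gave 18, but out of fewer groups than the main run, so that count is not a fall in share. The 163 regions of the loci fell to 76 with a q-value limit of 1e-10 in both replicates and to 95 within gene bodies alone. The median density percentile, 72.2, was 64.7 with that q-value limit, 74.5 with 50% reciprocal overlap, 65.5 within gene bodies, 78.4 with 20 kb flanks, 86.1 without regions at starts of other genes and 65.4 counted in base pairs, and from 67.1 to 69.8 in either replicate alone. The share of all locus regions with CATTCC was 17.2%, beside 20.5% of all shared regions. It was 14.1% with a 200 bp window, beside 14.7% of all shared regions, and 8.59% with ACATTCC, beside 7.02%. With the q-value limit it was 22.4% and within gene bodies 21.1%, and no matching share of all regions was computed for these 2 settings. Counting each replicate 1 peak once, added after seeing the data, gave 17.7%, and regions holding both summits gave 18.3%. The median promoter percentile, 41.8, ranged from 38.8 to 43.5 by replicate. No paired analysis was possible because there is 1 group. With 2 replicates and no read depth, small differences cannot be resolved.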
